A study of Caenorhabditis elegans with 6 samples.

Results

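Cuticle collagens are the structural proteins of the exoskeleton of Caenorhabditis elegans, and small RNAs at their genes were followed here in 3 mutant strains. The loci were taken by name: every locus named col with a number, and 15 loci named for the mutant body shapes rol, sqt, dpy or bli. This set was chosen with earlier results of these data known. They number 172 of the 42402 loci in the tables, 157 of them named col. A reference annotation lists 171 as protein-coding and 1, col-182, as a pseudogene.

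The strains were a triple mutant with the alleles hrde-1(tm1200), meg-3(ax3055) and meg-4(ax3052), an outcrossed JH3745 strain with meg-3(ax3055) and meg-4(ax3052), and a single mutant with hrde-1(tm1200). Each strain had 2 libraries. All worms were synchronised by starvation and raised at 20 °C on HT115 bacteria that carried the L4440 vector, and whole young mothers were collected. RNA was treated with a 5′ polyphosphatase, so that small RNAs with a 5′ triphosphate could be ligated. Wild type N2 enters through the authors' deposited fold changes alone. The labels do not say whether 2 libraries of a strain came from separate cultures, so p-values measure the spread between libraries, which may be technical.

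The epidermis secretes a new cuticle at each larval stage and at the adult moult. Collagen chains are made in waves during each moult, are hydroxylated and clipped, and are cross-linked outside the cell. Furrow collagens shape the circumferential grooves, and strut collagens form pillars in the adult cuticle. These genes act in the soma. Secondary small RNAs of C. elegans, the 22G-RNAs, are made by RNA-dependent RNA polymerases on a transcript. In the germ line the Argonaute HRDE-1 carries them into the nucleus, where they direct inherited silencing, and the proteins MEG-3 and MEG-4 help to build P granules.

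Recovered reads per library numbered 6780320 and 2384147 in the triple mutant, 5628602 and 5115457 reads in meg-3 meg-4, and 5450690 and 4604636 in hrde-1. At meg-3, listed as gei-12, the triple mutant held 0 and 0 reads, meg-3 meg-4 2 and 3, and hrde-1 52 and 22. At meg-4 all 4 libraries of strains that lack it held 0 reads, against 48 and 39 in hrde-1. Reads at hrde-1 itself were present in every library, between 633 and 4138, and the part of the gene that tm1200 removes is not in the labels, so these reads do not check the genotype. miRNA loci took 31.2% and 27.9% of reads in the triple mutant, 30.3% and 30.7% of reads in meg-3 meg-4, and 17.8% and 19.0% in hrde-1. The second meg-3 meg-4 library stood apart at yolk and muscle loci, with values given further on beside the collagens that share the pattern.

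Small RNAs were concentrated at a handful of collagens. Of the 172 loci, 32 had 0 reads in all 6 libraries, 68 had 1 to 9 reads in the 6 libraries together, 51 had 10 to 99 and 21 had at least 100. A count of 0 allows up to 3 reads, which is 0.44 to 1.41 RPM (reads scaled to library size, with TMM factors) by library. Together the collagens held 21335 and 6538 reads in the triple mutant, 7398 and 10345 reads in meg-3 meg-4, and 19285 and 20182 in hrde-1. The 5 loci col-71, col-111, col-157, col-121 and col-38 took 96.6% and 95.4% of these reads in the triple mutant, 89.9% and 81.0% of them in meg-3 meg-4, and 94.8% and 94.1% in hrde-1. Per kilobase of coding sequence, the mean level at col-71 was 2067 RPM in the triple mutant, 1153 RPM in meg-3 meg-4 and 1079 RPM in hrde-1. It was the highest of the 9 loci tested in these strains other than hrde-1, while in hrde-1 col-111 was above it at 1129.5 RPM per kilobase.

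Only 9 collagens had a mean of at least 10 RPM over the 6 libraries and could be tested. Nearest to this limit were col-60 (22.8 RPM), col-103 (12.1 RPM) and col-97 (10.2 RPM) inside it, and col-119 (9.51 RPM), col-140 (7.40 RPM) and col-20 (5.93 RPM) outside it. The mean is taken over all libraries, so a locus high in 1 strain alone can pass. The remaining 163 loci summed to 88.4 and 79.2 RPM in the triple mutant, 88.3 and 328.5 RPM in meg-3 meg-4, and 71.6 and 116.9 RPM in hrde-1. Libraries come from whole worms, so fewer cells with small RNAs at a gene and fewer small RNAs per cell cannot be told apart.

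**Figure D1:**
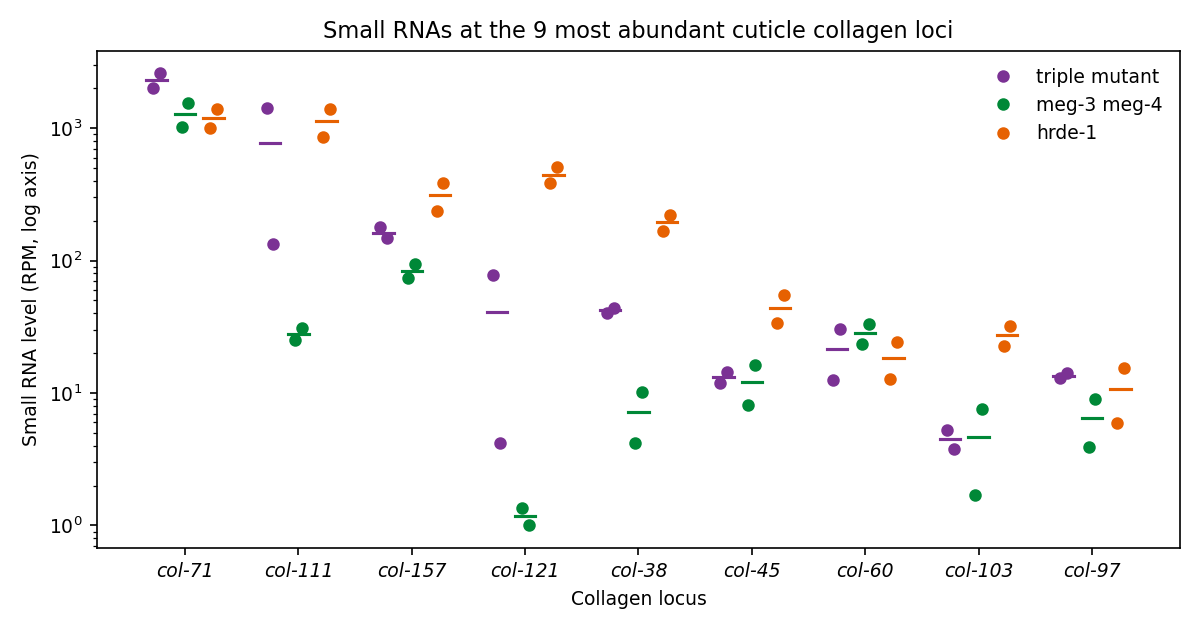
Small RNA level in RPM on a log axis at the 9 collagen loci with a mean of at least 10 RPM. Each point is 1 library and each bar the mean of the 2 libraries of a strain; at col-121, col-38 and col-157 all 3 strains separate, while at col-60 they overlap.

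The widest range among strains, as a ratio of levels, was at col-121 (F56D5.1, WBGene00000695, chromosome IV). Small RNAs there came to 77.5 and 4.22 RPM in the triple mutant, 1.35 and 1.00 RPM in meg-3 meg-4, and 383.7 and 507.7 RPM in hrde-1. In reads these are 429 and 9, 8 and 5, and 2643 and 2472. The strains did not overlap, with hrde-1 highest and meg-3 meg-4 lowest, and the triple mutant libraries differed greatly from each other. The triple mutant was higher than meg-3 meg-4 by 3.22 in log2 fold change (SE 0.82, limma adjusted p = 0.0273). Without the first triple mutant library the log2 fold change was 1.28 (limma adjusted p = 0.135), so the call rests on that library. It also ended when scaled to library totals (3.001, adjusted p = 0.127) or to miRNA reads (2.96, adjusted p = 0.135), and with a pseudocount of 5 RPM (2.16, adjusted p = 0.0774, limma in each case). Against hrde-1 the triple mutant was lower, with a value of −4.45 (SE 0.82, limma adjusted p = 0.00265), a call that DESeq2 did not make (adjusted p = 0.119). meg-3 meg-4 was lower than hrde-1, at −7.67 (SE 0.82, limma adjusted p = 1.3e-05).

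A second strongly variable locus was col-111 (F29B9.9, WBGene00000685, chromosome IV). It held 1420.1 and 133.6 RPM in the triple mutant, 25.1 and 30.9 RPM in meg-3 meg-4, and 857.2 and 1393 RPM in hrde-1. Here the first triple mutant library was above both hrde-1 libraries and the second below both, so these strains overlapped, while both lay above meg-3 meg-4. The triple mutant exceeded meg-3 meg-4 by 3.92 in log2 fold change (SE 0.75, limma adjusted p = 0.00432). This call was made in all 14 alternatives that gave a value, but its size ran from 2.22 without the first triple mutant library to 5.62 without the second. The triple mutant and hrde-1 differed by −1.32 (SE 0.75, limma adjusted p = 0.401). The value was −3.02 without the first triple mutant library and 0.38 without the second. Each of these fits keeps 1 triple mutant library and so holds no spread within that strain. meg-3 meg-4 was lower than hrde-1, at −5.24 (SE 0.75, limma adjusted p = 1.7e-04).

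At col-38 (F54C9.4, WBGene00000615, chromosome II) the replicates lay closer together. Levels were 39.9 and 44.1 RPM in the triple mutant, 4.22 and 10.2 RPM in meg-3 meg-4, and 168.4 and 222.2 RPM in hrde-1. The 3 strains did not overlap. The triple mutant was higher than meg-3 meg-4 by 2.49 in log2 fold change (SE 0.38, limma adjusted p = 8.4e-04) and lower than hrde-1, at −2.18 (SE 0.38, limma adjusted p = 0.00172). meg-3 meg-4 was lower than hrde-1, at −4.67 (SE 0.38, limma adjusted p = 1.3e-06). All 3 calls at col-38 were made in every alternative run.

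The same order of strains, in a narrower range, was seen at col-157 (T11F9.9, WBGene00000730, chromosome V). It held 178.2 and 147.2 RPM in the triple mutant, 73.4 and 94.0 RPM in meg-3 meg-4, and 238.1 and 382.2 RPM in hrde-1, with no overlap. Between meg-3 meg-4 and hrde-1 the log2 fold change was −1.85 (SE 0.36, limma adjusted p = 0.00213). For triple over meg-3 meg-4 the value was 0.95 (SE 0.36, limma adjusted p = 0.161) and for triple over hrde-1 −0.89 (SE 0.36, limma adjusted p = 0.171), and neither passed. The last difference passed with scaling to library totals (−1.33, adjusted p = 0.0194) and to miRNA reads (−2.01, adjusted p = 0.00145), where 8.92% and 75.5% of all loci were called.

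Both strains that lack meg-3 and meg-4 were alike in direction at col-103 and col-45. At col-103 (F56B3.1, WBGene00000677, chromosome IV) the levels were 5.24 and 3.75 RPM in the triple mutant, 1.69 and 7.63 RPM in meg-3 meg-4, and 22.5 and 32.0 RPM in hrde-1. At col-45 (F53G12.7, WBGene00000622, chromosome I) they were 11.9 and 14.5 RPM, 8.10 and 16.3 RPM, and 33.8 and 54.6 RPM in the same order. At both loci hrde-1 lay above the other strains, and the triple mutant libraries lay between those of meg-3 meg-4. The triple mutant was lower than hrde-1, with a log2 fold change of −2.36 at col-103 (SE 0.52, limma adjusted p = 0.00896) and −1.64 at col-45 (SE 0.38, limma adjusted p = 0.0129). meg-3 meg-4 was lower than hrde-1, with −2.53 at col-103 (SE 0.52, limma adjusted p = 0.00309) and −1.81 at col-45 (SE 0.38, limma adjusted p = 0.00372). Without the second hrde-1 library the col-45 calls ended (adjusted p = 0.0931 and 0.0526, limma), and without either hrde-1 library col-103 fell below the filter on the mean. For triple over meg-3 meg-4 the values were 0.18 at each locus (SE 0.52 at col-103 and 0.38 at col-45, limma adjusted p = 0.945 and 0.915).

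The remaining 3 tested loci had no call at these settings in any comparison of the 6 libraries. At col-71 (Y49F6B.10, WBGene00000647, chromosome II), the most abundant collagen locus, the triple mutant held 2009 and 2593 RPM, meg-3 meg-4 1019 and 1547 RPM, and hrde-1 1006 and 1397 RPM. Both triple mutant libraries lay above the other 4, with log2 fold changes of 0.86 over meg-3 meg-4 (SE 0.33, limma adjusted p = 0.178) and 0.94 over hrde-1 (SE 0.33, limma adjusted p = 0.104). The last passed with a replicate block (limma adjusted p = 0.0382). At col-60 (F22D6.10, WBGene00000636, chromosome I) levels were 12.7 and 30.5 RPM in the triple mutant, 23.6 and 32.9 RPM in meg-3 meg-4, and 12.8 and 24.2 RPM in hrde-1, and all strains overlapped. At col-97 (ZK1010.7, WBGene00000672, chromosome III) they were 13.01 and 14.1 RPM, 3.88 and 9.04 RPM, and 5.95 and 15.4 RPM in the same order. The triple mutant lay above meg-3 meg-4 there without overlap, by 1.05 (SE 0.48, limma adjusted p = 0.2995), and by 1.57 without the second meg-3 meg-4 library. With miRNA scaling, under which 45.6% of all loci were called for meg-3 meg-4 over hrde-1, col-71 (−0.84, adjusted p = 0.0342) and col-97 (−1.44, adjusted p = 0.0359) were called lower there (limma).

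**Figure D2:**
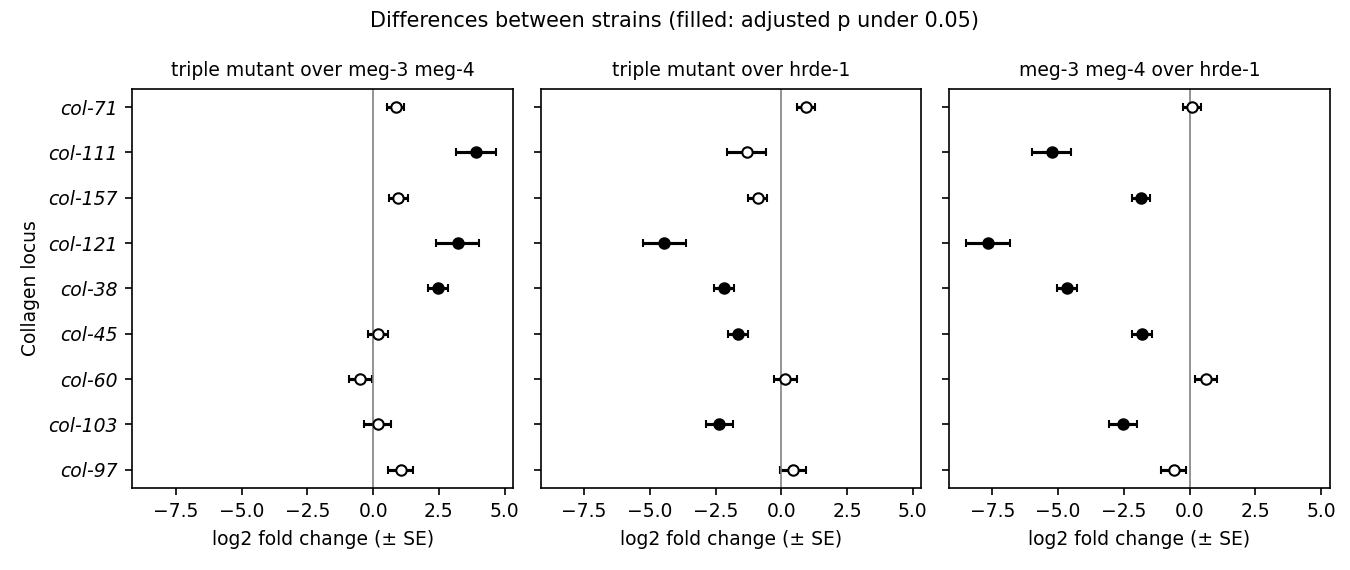
Log2 fold changes between strains at the 9 tested collagen loci, with bars of ± 1 SE from limma; filled points passed at a Benjamini-Hochberg adjusted p under 0.05. Counts of filled points are 3 for triple over meg-3 meg-4, 4 for the triple mutant over hrde-1 and 6 for meg-3 meg-4 over hrde-1.

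Triple over meg-3 meg-4 had 3 of 9 collagens higher and 0 lower, beside 7.91% of all 6469 loci called in either direction, 4.95% higher and 2.97% lower. The collagens' median log2 fold change was 0.95, against −0.04 over all loci tested. The triple mutant over hrde-1 had 0 higher and 4 lower, beside 10.3% of all loci called, 4.37% higher and 5.91% lower, with medians of −1.32 and −0.18. Without the second hrde-1 library 2 of these calls were made, at col-121 and col-38, beside 7.04% of all loci. meg-3 meg-4 over hrde-1 had 0 higher and 6 lower, beside 16.4% called, 7.02% higher and 9.38% lower, with medians of −1.85 and −0.15. Of the 9 loci, col-121, col-38, col-103 and col-97 averaged under 10 RPM in at least 1 strain and passed through the others, so these counts are descriptions. The 3 comparisons also share libraries in pairs.

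Scaling moved the median of all loci. For meg-3 meg-4 over hrde-1 it was −0.34 with library totals and −1.06 with miRNA reads, and for the triple mutant over hrde-1 −0.60 and −1.27. Each scaling divides a library by 1 constant, so it moves all loci nearly alike. Values relative to that median therefore stay nearly the same by construction and do not check the calls. Relative to it, meg-3 meg-4 over hrde-1 stood at −7.52 at col-121, −5.09 at col-111, −4.51 at col-38 and −1.70 at col-157 with TMM. With miRNA reads these were −7.44, −5.10, −4.50 and −1.71. At col-71 the triple mutant over hrde-1 stood at 1.12 relative to the median with TMM and 1.09 with miRNA reads, although its own log2 fold change turned to −0.17.

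Many collagen genes overlap another gene. In the WBcel235 annotation 72 of the 172 overlap a gene on the opposite strand, and for 52 this partner is protein-coding. Whether reads were counted by strand is not given in the sources used here, so reads of a collagen and of its partner cannot be told apart by these counts. How reads that match several similar collagens were counted is not given either, so levels of close relatives are uncertain. At col-121 the partner is daf-15, the worm homologue of Raptor, with 61.8 and 62.3 RPM in the triple mutant, 82.9 and 79.7 RPM in meg-3 meg-4 and 55.8 and 59.8 RPM in hrde-1. At col-111 it is psr-1, a phosphatidylserine receptor gene, with 6.14 and 13.1 RPM, 13.8 and 10.2 RPM, and 14.4 and 8.22 RPM in the same order. Neither partner was called in any of the 3 comparisons (limma adjusted p of at least 0.434 at daf-15 and 0.776 at psr-1). At col-103 the partner gst-40, a glutathione S-transferase gene, held at most 2 reads in a library. At col-71 it is the noncoding Y49F6B.15, with 126.5 and 163.1 RPM in the triple mutant, 53.8 and 83.7 RPM in meg-3 meg-4 and 62.0 and 95.3 RPM in hrde-1, a pattern like that of col-71 itself. At col-97 it is the protein-coding ZK1010.12, and col-38, col-157, col-45 and col-60 have no listed partner.

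The comparisons with wild type N2 rest on the authors' deposited tables, written here as hrde-1/N2 and triple/N2, beside triple/meg-3 meg-4. In the authors' deposited table for hrde-1/N2, 35 collagens had an adjusted p, of which 6 were higher and 2 lower, beside 15.9% of all 13876 loci called, 8.75% higher and 7.19% lower. The authors' deposited table for triple/N2 had 4 higher and 4 lower of 25 collagens, beside 18.8% of 12595 loci called, 8.77% higher and 10% lower. In the authors' deposited table for triple/meg-3 meg-4, 2 of 31 collagens were higher and 0 lower, beside 4.33% of 11871 loci called, 2.39% higher and 1.94% lower. The median log2 fold change of the collagens was 0.58, 0.38 and −1.71 in these deposited tables by the authors, against 0.07, −0.02 and −0.10 over all loci with an adjusted p. For triple/meg-3 meg-4 the 9 loci with a mean of at least 10 RPM had a median of 0.90 in the authors' deposited table, and the 22 below that level −2.14. Of these 22, 17 were highest in the second meg-3 meg-4 library, and the part of that library in the median was not tested. Collagens without an adjusted p are left out, and a low locus high in that library alone could have gained one. The medians of −2.14 and −1.71 are therefore descriptions. The 2 tables with N2 share their N2 libraries, and the last 2 share the triple mutant libraries.

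Single loci showed several patterns relative to N2. The authors' deposited table for hrde-1/N2 gave log2 fold changes of 9.86 at col-121 (adjusted p = 4.8e-49), 2.47 at col-38 (adjusted p = 1.3e-16), 1.97 at col-111 (adjusted p = 6.6e-11) and 1.35 at col-157 (adjusted p = 4.2e-05). The authors' deposited table for triple/N2 gave 6.39 at col-121 (adjusted p = 0.00247), 0.19 at col-38 (adjusted p = 0.747), 1.40 at col-111 (adjusted p = 0.605) and 0.38 at col-157 (adjusted p = 0.236). Of these 4 loci, all called higher in hrde-1, col-121 alone was also called higher in the triple mutant, and whether the size of the difference itself differs between the strains was not tested. The triple mutant libraries lay far apart at col-121 (77.5 and 4.22 RPM) and at col-111 (1420.1 and 133.6 RPM). col-45 and col-103 were lower in the triple mutant than in N2 in the authors' deposited table, at −2.50 (adjusted p = 4.8e-16) and −1.69 (adjusted p = 0.00776). In hrde-1 over N2 the authors' deposited table had −0.69 (adjusted p = 0.127) and 0.91 (adjusted p = 0.0889) at these loci, with no call. At col-71 the authors' deposited table for triple/N2 called a rise of 1.28 (adjusted p = 2.9e-11), and hrde-1 over N2 had 0.40 (adjusted p = 0.349). In the authors' deposited table for triple/meg-3 meg-4, col-38 (2.47, adjusted p = 5.5e-05) and col-111 (4.73, adjusted p = 0.0175) passed, and col-121 (5.06, adjusted p = 0.0515) just missed.

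**Figure D3:**
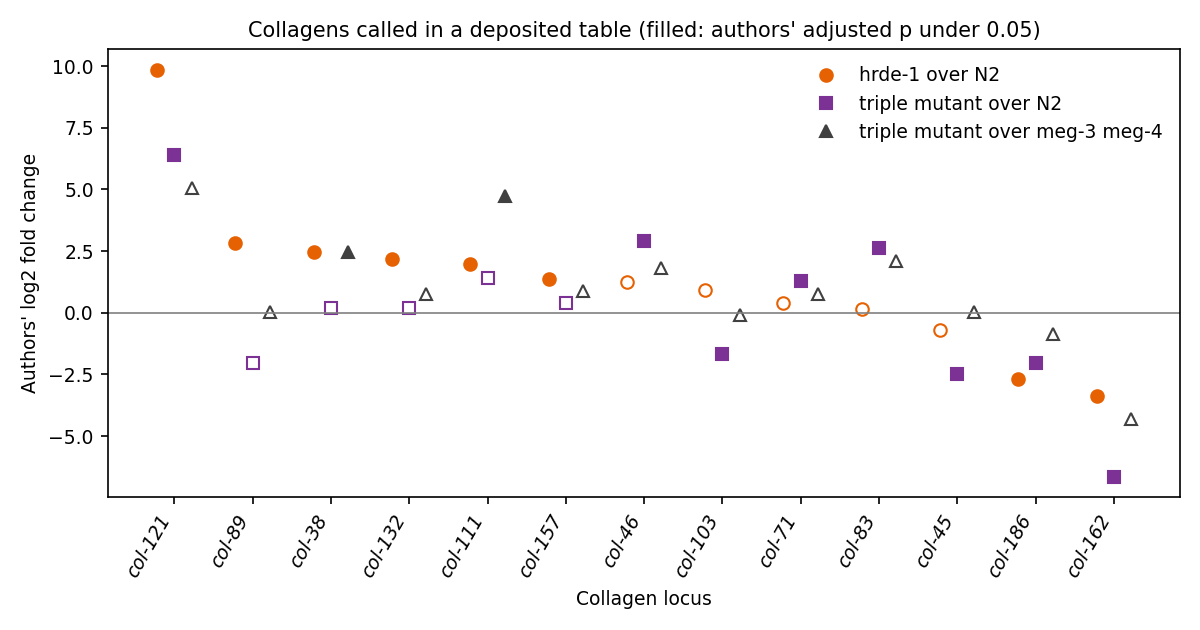
The authors' log2 fold change at the 13 collagen loci called in at least 1 deposited table, for hrde-1 over N2, the triple mutant over N2 and triple over meg-3 meg-4. Filled symbols have an adjusted p under 0.05 and open ones a higher one or none; col-121 stands far above the others in hrde-1 over N2.

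The deposited tables also called 6 collagens that lay under 10 RPM in the 6 libraries. At col-89 the triple mutant held 5 and 0 reads, meg-3 meg-4 2 and 3, and hrde-1 59 and 114, with a log2 fold change of 2.84 in the authors' deposited table for hrde-1/N2 (adjusted p = 1.9e-05). At col-132 they held 11 and 2, 3 and 6, and 33 and 33 reads in the same order, with 2.17 in the authors' deposited table for hrde-1/N2 (adjusted p = 0.0217). Both loci were thus highest in both hrde-1 libraries, without overlap.

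At col-83 the triple mutant was highest, with 28 and 14 reads, against 7 and 7 in meg-3 meg-4 and 4 and 7 in hrde-1. At col-46 it held 22 and 7 reads, against 7 and 4 and 7 and 6. The authors' deposited table for triple/N2 gave 2.64 (adjusted p = 0.0112) at col-83 and 2.89 (adjusted p = 0.0410) at col-46. Scaled for depth, both triple mutant libraries were above the other 4 at both loci: 5.06 and 6.56 RPM at col-83, against 1.18 and 1.41 RPM in meg-3 meg-4 and 0.58 and 1.44 RPM in hrde-1, and 3.98 and 3.28 RPM at col-46, against 1.18 and 0.80 RPM in meg-3 meg-4 and 1.02 and 1.23 RPM in hrde-1.

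At col-162 the triple mutant held 0 and 1 reads, meg-3 meg-4 10 and 20, and hrde-1 5 and 10. At col-186 they held 19 and 3, 31 and 18, and 11 and 8 reads. Both were lower than N2 in the authors' deposited tables, with log2 fold changes of −6.66 (adjusted p = 1.7e-05) and −2.06 (adjusted p = 0.00759) in the triple mutant and −3.36 (adjusted p = 1.0e-06) and −2.69 (adjusted p = 1.4e-04) in hrde-1. These were the loci lower than N2 in both deposited tables by the authors.

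Collagens known by their mutant shapes carried next to no small RNAs. The 15 loci together had 37 and 8 reads in the triple mutant, 31 and 40 reads in meg-3 meg-4, and 54 and 62 in hrde-1, and none passed the filter on the mean. Of the furrow collagens (dpy-2, dpy-3, dpy-7, dpy-8, dpy-9, dpy-10), dpy-9 had the most reads, 3 and 4 in the triple mutant, 1 and 3 reads in meg-3 meg-4 and 21 and 24 in hrde-1. dpy-10 followed with 9 and 0, 4 and 8, and 16 and 17 reads in the same order, and both were highest in hrde-1. The other 4 furrow collagens held at most 3 reads in any library, and dpy-3 held 0 in all 6.

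The dumpy collagens dpy-4, dpy-5 and dpy-13 had between 0 and 5 reads in each library. Among the roller and squat collagens, sqt-1 held 1 and 0 reads in the triple mutant, 9 and 5 reads in meg-3 meg-4 and 3 and 4 in hrde-1, and sqt-3 held 3 and 0, 4 and 6, and 1 and 3. sqt-2 and rol-6 had at most 2 reads in a library. Of the strut collagens, bli-2 held 7 and 2 reads in the triple mutant, 2 and 2 reads in meg-3 meg-4 and 5 and 7 in hrde-1, and bli-1 had 1 read in all libraries together. At this depth sqt-1, sqt-3 and bli-2 were not tested between strains.

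Below the filter a different set of collagens moved with 1 library. Of 33 collagens with a mean of 1 to under 10 RPM, 20 (60.6%) were highest in the second meg-3 meg-4 library, against 18.8% of the 7412 other loci at that level. Among these 20 were col-19, a collagen of the adult cuticle, and col-119, col-140, col-20, col-122 and col-124. At col-119 the triple mutant held 14 and 9 reads, meg-3 meg-4 20 and 216, and hrde-1 12 and 9. At col-140 they held 15 and 12, 22 and 151, and 4 and 7, and at col-19 9 and 3, 11 and 74, and 7 and 12. Summed over all 33 loci, the level was 62.7 and 58.6 RPM in the triple mutant, 68.7 and 296.6 RPM in meg-3 meg-4, and 50.1 and 88.3 RPM in hrde-1. The first meg-3 meg-4 library thus lay near the other strains and the second above all others. The mean that defines these loci includes the second library, so a locus high in it alone could enter. The shares and sums are therefore descriptions.

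Loci of other tissues were also high in that library. The 6 yolk genes vit-1 to vit-6, made in the intestine, summed to 150.9 and 79.7 RPM in the triple mutant, 273.9 and 3231 RPM in meg-3 meg-4, and 38.8 and 55.0 RPM in hrde-1. The 18 muscle genes summed to 44.6 and 40.8, 78.6 and 283.1, and 54.2 and 44.6 RPM in the same order, and all 18 had reads. Not all muscle genes followed the sum: act-2 held 26.2 RPM in the first and 14.7 RPM in the second meg-3 meg-4 library. At unc-54 the values were 7.26 RPM in the first and 62.0 RPM in the second meg-3 meg-4 library. The 10 germ line genes, all with reads, were not high in it: 1167 and 1198 RPM in the triple mutant, 1601 and 951.6 RPM in meg-3 meg-4, and 1995 and 1319.6 RPM in hrde-1. The basement membrane collagens let-2 and emb-9 held 120 and 66 reads in the second meg-3 meg-4 library, and at most 21 and 10 in any other. The part of these loci in the collagen values was not tested. The 6 collagens that were called lower in meg-3 meg-4 than in hrde-1 kept that direction without that library. Such a fit keeps a single meg-3 meg-4 library and so holds no spread within that strain.

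**Figure D4:**
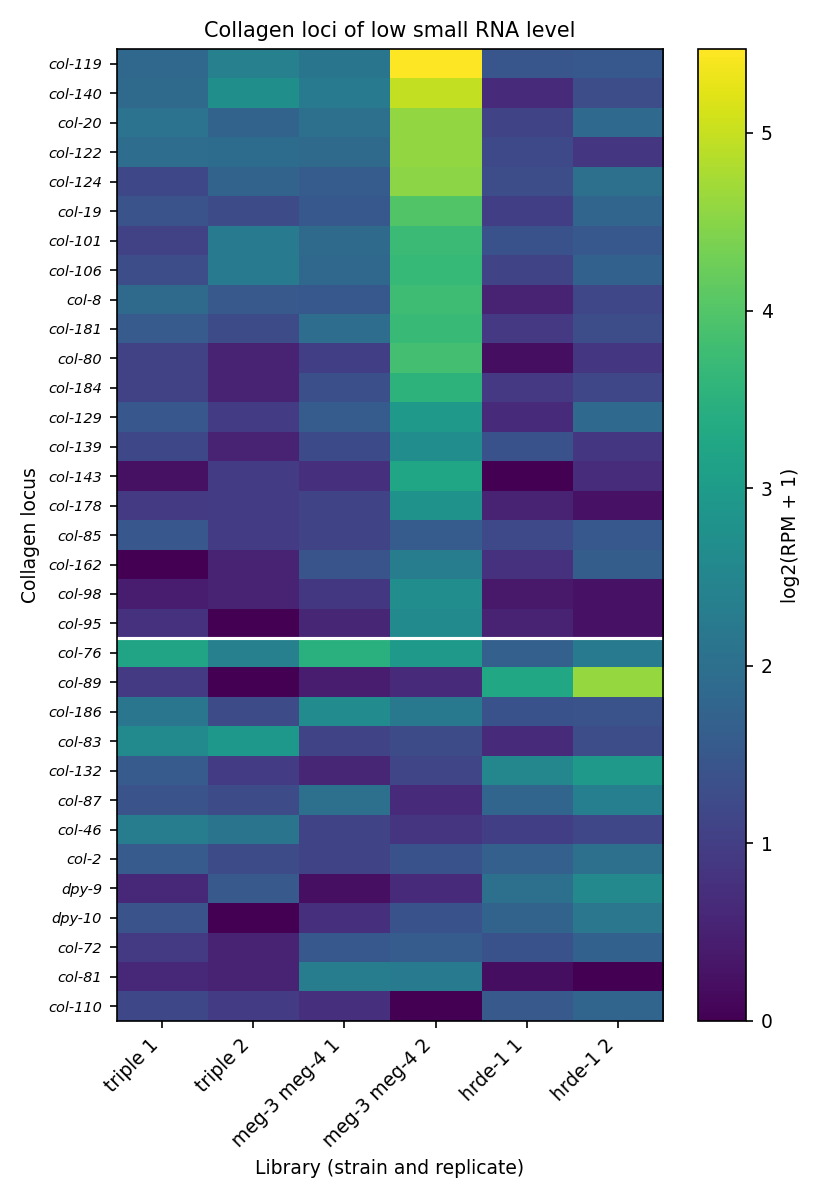
Heat map of log2(RPM + 1) for the 33 collagen loci with a mean of 1 to under 10 RPM (rows) in the 6 libraries (columns). The 20 loci above the white line are highest in meg-3 meg-4 replicate 2, and below it col-89 and col-132 are highest in both hrde-1 libraries.

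With the filter lowered to a mean of 1 RPM, 42 collagens were tested and meg-3 meg-4 over hrde-1 had 7 higher and 9 lower, beside 12% of all 13914 loci called, 5.72% higher and 6.3% lower. Without the second meg-3 meg-4 library as well, an alternative added after the data were seen, there were 2 higher and 9 lower of 38, beside 11.4% of 13859 loci called, 4.49% higher and 6.86% lower. The collagens' median log2 fold change was 0.76 with that library and 0.01 without it. A collagen high in that library alone could pass the lowered filter, so the counts with it are descriptions. Triple over meg-3 meg-4 had 4 higher and 1 lower of 42, beside 4.57% of all loci called, 2.65% higher and 1.92% lower, with a collagen median of −0.76. The lower locus was col-81, lower in the triple mutant than in meg-3 meg-4, with 3 and 1 reads in the triple mutant, 23 and 19 reads in meg-3 meg-4, and 1 and 0 in hrde-1. col-81, and the reads given for col-119, col-140 and col-19, were chosen after the values were seen. Of the 33 low collagens, 8 (24.2%) were highest in an hrde-1 library, against 33.0% of the other loci at that level, among them col-89, col-132, dpy-9 and dpy-10.

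Other genes of the cuticle showed both directions. Of 35 cuticlin loci, which encode non-collagen cuticle proteins, 3 were tested. cutl-14 was higher in the triple mutant than in meg-3 meg-4, with 50.8 and 224.5 RPM against 3.54 and 5.62 RPM, and hrde-1 held 271.7 and 415.9 RPM. cutl-26 held 0.36 and 0.47 RPM in the triple mutant, 1.18 and 1.81 RPM in meg-3 meg-4, and 58.4 and 68.2 RPM in hrde-1. Both were lower in meg-3 meg-4 than in hrde-1 (log2 fold change −5.94, SE 0.54, and −4.69, SE 0.46, limma adjusted p = 3.0e-06 and 6.3e-06). cutl-26 was also lower in the triple mutant than in hrde-1 (−5.50, SE 0.46, limma adjusted p = 3.8e-06).

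Of 15 genes for collagen processing and cross-linking 4 were tested, with 1 call: pdi-2, a protein disulphide isomerase, was higher in meg-3 meg-4 than in hrde-1 (1.21, SE 0.38, limma adjusted p = 0.0453). This call ended with library totals, with miRNA reads, with no filter and without the second hrde-1 library, and without the second meg-3 meg-4 library pdi-2 fell below the filter on the mean. The protease gene dpy-31, which acts on collagen propeptides, in the triple mutant stood 1.12 above meg-3 meg-4 (SE 0.33, limma adjusted p = 0.0547). It passed with library totals (adjusted p = 0.0489), miRNA reads (adjusted p = 0.0398) and a replicate block (adjusted p = 0.0223, limma in each case), with DESeq2 (adjusted p = 0.0478), and in the authors' deposited table (1.05, adjusted p = 0.0289). It missed with edgeR (adjusted p = 0.106). In limma it missed with a filter at 1 RPM (adjusted p = 0.0714) and no filter (adjusted p = 0.178). Pseudocounts of 0.5 and 5 RPM also gave no call (limma adjusted p = 0.0546 and 0.0606). When single libraries of these strains were left out, the log2 fold change ran between 0.86 and 1.24. Of 17 moulting and epidermal genes 5 were tested. nas-36, a metalloprotease gene of the moult, held 961.8 and 954.8 RPM in the triple mutant, 260.6 and 223.5 RPM in meg-3 meg-4 and 393.6 and 542.8 RPM in hrde-1, and was called higher in the triple mutant than in meg-3 meg-4 (1.99, SE 0.33, limma adjusted p = 0.00155). lon-8, a body length gene, held 2.17 and 1.87 RPM, 144.3 and 163.05 RPM, and 2.32 and 4.11 RPM in the same order, so it was low in both strains with hrde-1(tm1200). In the authors' deposited tables it was also lower in both than in N2, at −6.49 in the triple mutant (adjusted p = 7.3e-51) and −5.83 in hrde-1 (adjusted p = 1.8e-51). Among 5 cuticle collagens with other names, dpy-17 had the most reads, with 14 and 1 in the triple mutant, 4 and 11 reads in meg-3 meg-4, and 76 and 99 in hrde-1.

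**Figure D5:**
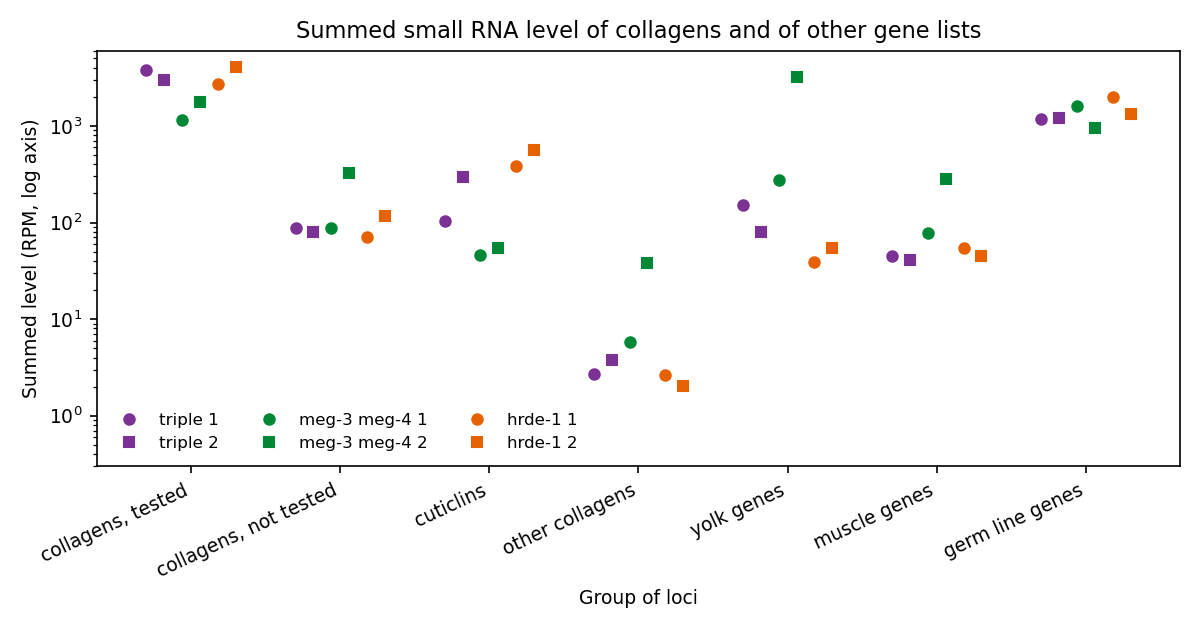
Summed small RNA level in RPM on a log axis, 1 point per library (circles replicate 1, squares replicate 2), for the 9 tested collagens, the 163 other collagens, cuticlins, collagens outside the cuticle set, yolk, muscle and germ line genes. The second meg-3 meg-4 library is highest for the 163 other collagens, the other collagens, yolk and muscle.

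Patterns across the 6 libraries were compared by Pearson's correlation of log2(RPM + 1) among the 42 collagens with a mean of at least 1 RPM, as a description over libraries of shared strains and depth. Closest to col-121 were col-132 (r = 0.94), col-111 (0.94) and col-157 (0.93). Closest to col-111 were col-121 (0.94), col-157 (0.91) and col-38 (0.87). For col-38 they were col-157 (0.97), dpy-9 (0.92) and col-121 (0.91), and for col-103 they were col-45 (0.97), col-132 (0.96) and col-89 (0.93).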

How the data were processed

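Small RNA reads were counted per annotated locus in whole worms. The tools cutadapt, Bowtie2, HTSeq and DESeq2 and the build ce10 are named, per the submitters' processing notes; versions, settings, strand and the treatment of reads with several positions are not given in the sources used here. The authors deposited 3 tables, each of 2 strains. Per the file headers the library values are fpm: in 1 table they are RPM, with equal sums per library, and in the others a scaled signal. The log2 fold changes and adjusted p-values in the deposited tables were made by the authors. The 4 N2 library columns and 6 mean columns were not used, since N2 is not among the samples.

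Every value above 0 was a whole multiple of its library's smallest value within 0.001 read (100% of values), so reads were recovered from all tables. The 6 libraries were scaled together by the trimmed mean of M values (TMM; edgeR 4.0.16), and limma 3.58.1 (trended variance) modelled log2(RPM + 1) in 3 groups, over 6469 loci with a mean of at least 10 RPM. The threshold for a call was 0.05 on p-values adjusted by Benjamini-Hochberg over all loci tested. edgeR and DESeq2 1.42.0 on the recovered reads were alternatives. Scripts were tested on simulated data. Library totals ranged from 2384147 to 6780320 reads, without molecular identifiers, so limits from counts cover counting error only.

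All 172 loci matched a reference annotation by WormBase ID. It is of the build WBcel235, so names, classes, chromosomes, coding lengths and overlaps were taken from it, and no coordinates. No sequence is shown. Values per library are given for the tested loci, those called in a deposited table, col-103, col-111, col-121 and col-38, and by range for loci named for a mutant shape. The loci and gene lists were chosen with earlier results of these data known.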

Additional observations from a re-analysis of the deposited data

How the results depend on the processing

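Triple/double stands for the triple mutant over the meg-3 meg-4 double mutant, and likewise for the other pairs. With a filter at 1 RPM in place of 10, collagen calls came to 5 (triple/double), 7 (triple/hrde-1) and 16 (double/hrde-1), against 3, 4 and 6, beside 4.57%, 6.27% and 12% of all loci called. With no filter they came to 7 (triple/hrde-1) and 14 (double/hrde-1), beside 2.42% and 4.93%. With a filter at 1 RPM and without the second library of the double mutant they came to 5 (triple/double) and 11 (double/hrde-1), beside 5.17% and 11.4%. More loci were tested under each. Leaving out a single library leaves 1 library in its strain, so the spread behind calls in such fits comes from the other strains. edgeR on the recovered reads called 497, 618 and 996 of all 6469 loci and made the same 3, 4 and 6 collagen calls. At an adjusted p under 0.01 the authors' deposited table for triple/double had 1 collagen call in place of 2. The share of all loci called at 0.01 is not given here, so this count is a description. At 0.05 that share was 4.33%.

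Differences without a call turned sign. With totals and miRNA reads the median of all loci moved too, since a change of scaling moves all loci nearly alike. Relative to that median each of the values below kept its sign. This follows from the scaling and does not check the values. In triple/hrde-1, col-60 stood relative to it at 0.33 with TMM, 0.34 with totals and 0.36 with miRNA reads. For the other settings the cause was not tested. For triple/double, col-45 had −0.047 with library totals and −0.0015 with miRNA reads, and col-103 had −0.013 with totals and −0.018 with DESeq2. When single libraries were left out, col-45 ran between −0.41 and 0.64, col-60 between −1.08 and 0.12, and col-103 between −0.78 and 1.02. For triple/hrde-1, col-60 had −0.26 with totals and −0.91 with miRNA reads, col-97 had −0.58 and col-71 −0.17 with miRNA reads. When single libraries were left out, col-60 ran between −0.45 and 0.76, col-97 between −0.11 and 0.50, and col-111 between −3.02 and 0.38. For double/hrde-1, col-71 had −0.11 with totals and −0.84 with miRNA reads, the last a call (limma adjusted p = 0.0342), and col-60 had −0.25 with miRNA reads. When single libraries were left out, col-71 ran between −0.22 and 0.48 and col-97 between −1.13 and 0.0051.

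Summed over the 172 loci, the level was 3856 and 3065 RPM in the triple mutant, 1248 and 2077 RPM in the double mutant, and 2800.0 and 4145 RPM in hrde-1. Without the locus with the most reads these came to 1847 and 471.1, 229.7 and 530.5, and 1794 and 2748 RPM. With totals the sum over the 172 loci was 3147 and 2742 RPM in the triple mutant, 1314 and 2022 RPM in the double mutant, and 3538 and 4383 RPM in hrde-1. With miRNA reads it was 2657 RPM in triple mutant replicate 1 and 5253 and 6084 RPM in hrde-1. The miRNA-scaled sums of the other libraries are not given here.

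Deviations of same-numbered libraries had a correlation of −0.185 (triple and hrde-1), 0.555 (double and hrde-1) and −0.112 (triple and double). Those of the double mutant and hrde-1 thus moved together. The labels do not say what same-numbered libraries share, and the main fit has no replicate term. With a replicate block the collagen calls were 3, 5 and 6, col-71 being added for triple/hrde-1. Beside these, 9.99%, 12.8% and 19.3% of all loci were called, against 7.91%, 10.3% and 16.4% without the block.

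Depth limits the 163 collagens that were not tested, of which 32 had 0 reads and 68 had 1 to 9 reads over all 6 libraries.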
